A study of Mus musculus with 6 samples.

Results

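Connexins are the subunits of gap junctions, and claudins, occludin, the junctional adhesion molecules and their scaffolds build the tight junction. The genes of both structures were compared between islet cells sorted for high and low *Wnt4*. They were taken by name, from the genes on the array whose symbol is *Gja*, *Gjb*, *Gjc*, *Gjd* or *Cldn* with a number, together with *Ocln*, *Tjp1*, *Tjp3*, *F11r*, *Jam2*, *Jam3*, *Marveld2* and *Cgn*. The genes described here are 45 of 22911 gene symbols with a probe, namely 15 connexins, 22 claudins, 2 MARVEL proteins, 3 junctional adhesion molecules and 3 plaque proteins. A gene was counted as measured when its probe was well above background, as the scanner software marks it, on all 3 arrays of at least 1 population, and 36 of the 45 were.

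The cells came from islets of *Wnt4eGFPCre; mTmG* pups on postnatal day 1. In these animals a *Wnt4* allele carries eGFP and Cre, and Cre turns the membrane tdTomato of the *ROSA26* reporter into membrane GFP (mGFP). Cells were sorted on mGFP into Wnt4hi (GFPpositive) and Wnt4low (GFPnegative) by this lineage mark. The labels give the genotype as Wnt4pos and Wnt4neg, and a legend of the study writes the Wnt4low side of the comparison as *Tg*- for *Wnt4eGFPCre*, so it is not settled here whether the Wnt4low cells came from pups with that allele. Each of the 6 arrays held the RNA of 1 pool of islets from 3 or 4 pups, amplified before labelling with Cy5, and there were 3 arrays for Wnt4hi (replicates 2, 3 and 4) and 3 for Wnt4low (replicates 1, 3 and 4). The labels do not say whether an mGFP+ and an mGFP- sample with the same number came from the same pool.

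β-cells are coupled by gap junctions, whose channels let ions and small molecules pass from cell to cell and hold the calcium responses of an islet together. Tight junctions seal the space between epithelial cells: claudins set what can pass, tricellulin closes the points where cells meet at corners, and cytoplasmic plaque proteins such as ZO-1 and cingulin tie the strands to actin. Endothelial cells and the mural and mesenchymal cells around vessels build junctions of their own, with other connexins and with junctional adhesion molecules.

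On the 6 arrays 70.5 to 79.5% of 59305 spots were well above background, and 0 spots were saturated. *Wnt4* itself was at 10.83 ± 0.34 (SD, n = 3) in Wnt4hi and at 9.76 ± 0.40 in Wnt4low on the normalized log2 scale. The difference was 1.08 ± 0.27 (SE, limma unadjusted p = 0.0069, limma adjusted p = 0.210). Of 10 β-cell markers, 6 were higher in Wnt4hi at an unadjusted p under 0.05, as were 3 of 6 α-cell markers. Endothelial markers went the other way, with 16 of 17 higher in Wnt4low, 8 of these at a limma adjusted p under 0.05. Of all features, 0 passed that adjusted threshold with the replicate number as a term of the fit, and 0 to 9 with 1 array left out. The endothelial markers had a summed intensity of 6007 to 8257 on the Wnt4hi arrays against 43964 to 95144 on the Wnt4low arrays. The defining endothelial genes *Pecam1*, *Cdh5* and *Kdr* were well above background on 3 of 3 Wnt4hi arrays, and 3 of the 17 markers were so on 0 Wnt4hi arrays. The 12 mesenchymal and mural markers held 8 that were higher in Wnt4low, with sums of 42761 to 73980 in Wnt4hi and 90922 to 118596 in Wnt4low. In sorted bulk samples, fewer cells of a type and less RNA per cell cannot be told apart.

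**Figure D1:**
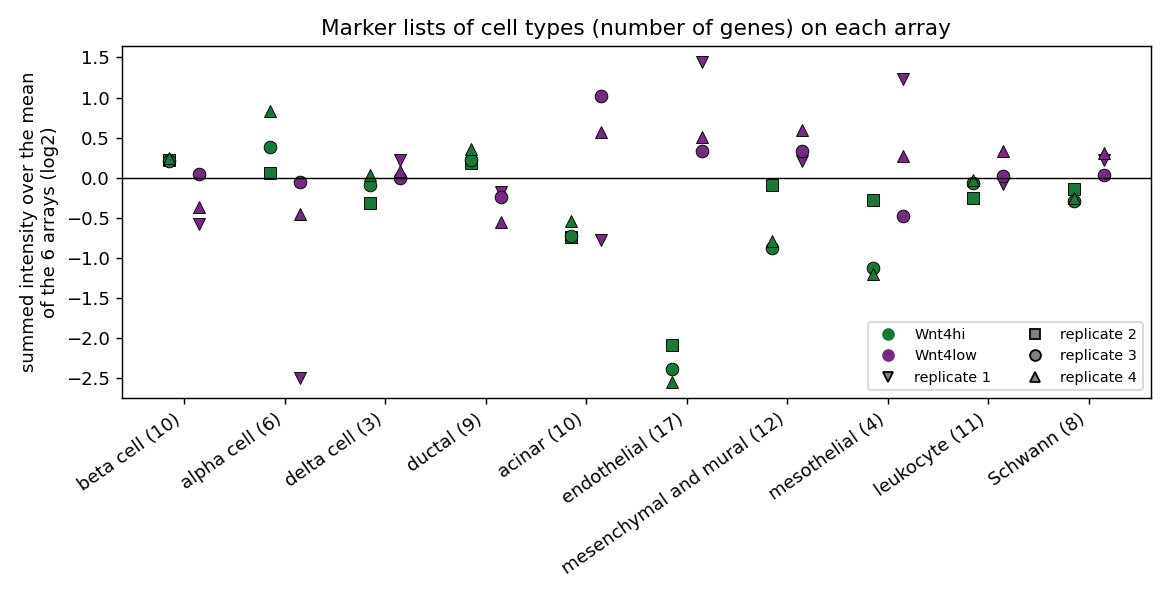
Summed normalized intensity of 10 marker lists on each array, as log2 of the ratio to the mean of the 6 arrays, in green for Wnt4hi and purple for Wnt4low, with the replicate number as the symbol and the number of genes in brackets. The 17 endothelial markers sum to 9.0-fold more in Wnt4low than in Wnt4hi and the 12 mesenchymal and mural markers to 1.90-fold more, without overlap of the arrays.

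At the unadjusted p of 0.05 that the study used (limma), 5 of the 45 junction genes were higher in Wnt4hi (11.1%) and 5 were higher in Wnt4low (11.1%). Over all 45616 features tested the shares were 5.06% and 5.53%. All of these were among the measured genes. The 3 arrays of one population lay wholly above those of the other for 6 of the 36 measured genes towards Wnt4hi and for 7 towards Wnt4low, against 10.6% and 7.6% of the 32006 measured features and 9.63% and 6.44% of all features. After Benjamini-Hochberg adjustment over all 45616 features by limma, 0 of the 45 passed 0.05. The lowest adjusted p was 0.0996, for *Gjc1*, and the adjusted threshold was passed by 0.0351% and 0.406% of all features and by 0.05% and 0.575% of the measured ones, towards Wnt4hi and Wnt4low. Every difference of a junction gene given here as higher therefore passed the unadjusted threshold alone. With 3 arrays against 3, an exact two-sided permutation test of a single gene cannot go below 0.1.

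Of the 36 measured genes, 30 were well above background on each of the 6 arrays. *Cldn3*, *Cldn19*, *Cldn23* and *Ocln* were measured through Wnt4hi alone and *Cldn10* and *Jam2* through Wnt4low alone, and these 6 could only be counted because of the population in which they were brighter. The log2 difference had a median of 0.078 over the 36 measured genes and of 0.069 over all 45, close to the median of 0.073 over all features. The genes thus moved in both directions, and 26 of the 36 did not pass the unadjusted threshold. The differences ran from -3.07 (*Gja4*) to 2.13 (*Marveld2*).

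**Figure D2:**
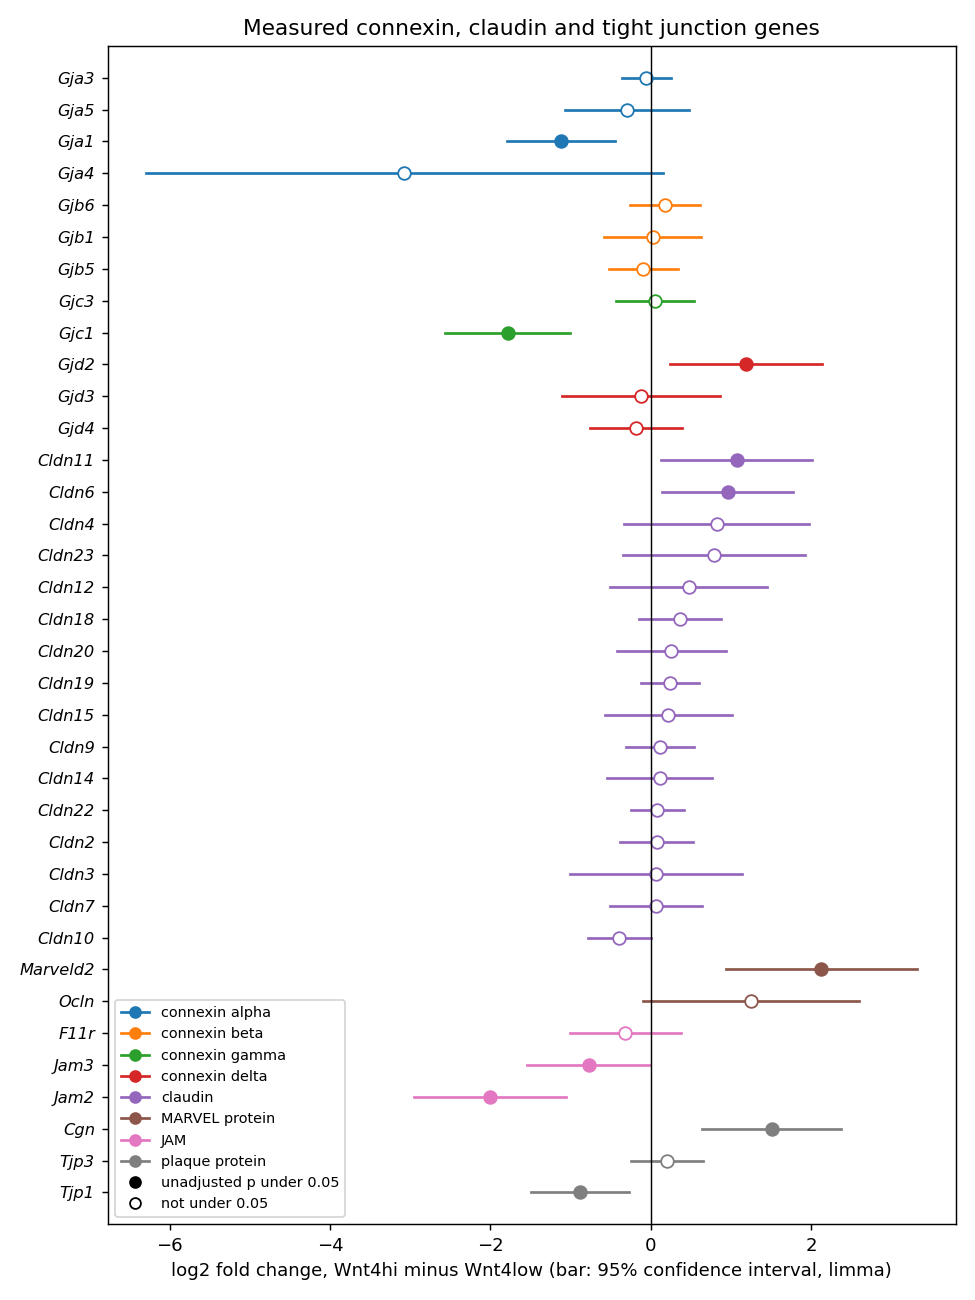
Log2 fold change (Wnt4hi minus Wnt4low) of the 36 measured junction genes with its 95% confidence interval from limma, by family; filled points have an unadjusted p under 0.05. Of the filled points, *Gjd2*, *Cldn11*, *Cldn6*, *Marveld2* and *Cgn* lie to the right of 0 and *Gja1*, *Gjc1*, *Jam2*, *Jam3* and *Tjp1* to the left.

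Among the connexins, *Gjd2*, which encodes the main gap junction protein of β-cells, was higher in Wnt4hi. Its normalized log2 intensity was 11.44, 12.19 and 12.22 on the arrays of Wnt4hi replicates 2, 3 and 4 and 10.03, 11.34 and 10.94 on those of Wnt4low replicates 1, 3 and 4. The lowest Wnt4hi array lay just above the highest Wnt4low array, so the populations did not overlap. The difference was 1.19 ± 0.39 (SE, unadjusted p = 0.0223, limma adjusted p = 0.346), or 2.27-fold. Without Wnt4hi replicate 3 or replicate 4 the difference was 1.07 and 1.05, with an unadjusted p of 0.0676 and 0.0703. It was smallest without Wnt4low replicate 1, at 0.82, where it still passed the unadjusted threshold.

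*Gjc1*, a connexin known from smooth muscle, pericytes and the conducting cells of the heart, was higher in Wnt4low. Its log2 intensity was 11.61, 10.76 and 11.05 in Wnt4hi and 12.37, 13.19 and 13.20 in Wnt4low. All Wnt4low arrays were above all Wnt4hi arrays. The difference was -1.78 ± 0.32 (SE, unadjusted p = 0.0013, limma adjusted p = 0.0996), which is 3.44-fold and has the lowest p of the 45 genes.

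*Gja1*, the connexin of fibroblasts, vascular smooth muscle and many other cells, was also higher in Wnt4low. On the probe with the highest mean, its log2 intensity was 9.18, 8.83 and 8.73 in Wnt4hi and 10.55, 9.59 and 9.96 in Wnt4low. These arrays did not overlap. The difference was -1.12 ± 0.28 (SE, unadjusted p = 0.0062, limma adjusted p = 0.202). A second *Gja1* probe was at 8.11, 6.40 and 7.02 in Wnt4hi and 10.38, 9.71 and 10.73 in Wnt4low. It was well above background on 1 of 3 Wnt4hi arrays and 3 of 3 Wnt4low arrays, so that its fitted difference of -3.10 is set in part against background and is no measure of size. The third was so on 0 Wnt4hi arrays and 2 Wnt4low arrays, and its means of 6.30 and 7.98 allow only the bound of at least 1.57-fold higher in Wnt4low. All 3 probes had the same direction.

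*Gja4*, known from arterial endothelium, had the largest difference of the 45 and 1 array that decided its size. Its log2 intensity was 10.56, 9.58 and 9.02 in Wnt4hi and 15.94, 11.12 and 11.32 in Wnt4low. The populations did not overlap, and the array of Wnt4low replicate 1 was far above all others. Its only probe has 1 spot, with a median scanner intensity of 65148 on that array, 2176 and 2209 on the other Wnt4low arrays and 384 to 1506 on the Wnt4hi arrays, and the software did not mark that spot as an outlier. On the array of Wnt4low replicate 1, 4 of 45616 features lay over 4 log2 units above all 5 other arrays. The difference was -3.07 ± 1.33 (SE, unadjusted p = 0.0586, limma adjusted p = 0.50), and without that array it was -1.50, with an unadjusted p of 0.0225. The 17 endothelial markers also summed highest on that array, at 95144, and their part in the *Gja4* value was not tested.

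The other 8 measured connexins did not pass the test. *Gja5*, the other arterial connexin, stood at 9.65 ± 0.19 (SD) in Wnt4hi and 9.95 ± 0.61 in Wnt4low, a difference of -0.30 with a 95% confidence interval of -1.07 to 0.48, and its second probe gave 0.061. Without Wnt4low replicate 3 the difference was -0.64, with an unadjusted p of 0.021, and without Wnt4low replicate 4 it was -0.051. For the remaining ones, *Gja3* (-0.058) of the lens, *Gjb1* (0.024) of liver and exocrine cells, *Gjb5* (-0.094), *Gjb6* (0.18), *Gjc3* (0.053), *Gjd3* (-0.12) and *Gjd4* (-0.19), the log2 differences were all below 0.2 in size. The signs of *Gja3*, *Gjb1*, *Gjb5*, *Gjc3*, *Gjd3* and *Gjd4* turned under at least 1 alternative, so no direction is given for them. Within the delta class *Gjd2* was thus the only measured connexin to pass, and within the gamma class *Gjc1*.

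Of the 3 connexins that were not measured, *Gja6* was well above background on 1 array, *Gja10* on 1 array of each population and *Gjb2* on 2 Wnt4hi arrays and 1 Wnt4low array.

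The promoters of *Gjd2* and *Gja1* are shown because these connexins differed in opposite directions. Each is the 250 bases before the gene start, 5′ to 3′ on the gene's strand, from RefSeq (GRCm38.p6), with a GC box (GGGCGG) or an AP-1 site (TGANTCA) on either strand in capitals.

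Gjd2, chr2:114013620-114013869, minus strand: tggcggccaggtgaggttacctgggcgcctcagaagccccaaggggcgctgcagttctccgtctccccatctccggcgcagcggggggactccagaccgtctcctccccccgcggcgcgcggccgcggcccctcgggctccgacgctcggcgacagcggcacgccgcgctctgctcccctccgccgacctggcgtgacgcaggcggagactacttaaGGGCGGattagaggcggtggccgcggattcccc

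Gja1, chr10:56377050-56377299, plus strand: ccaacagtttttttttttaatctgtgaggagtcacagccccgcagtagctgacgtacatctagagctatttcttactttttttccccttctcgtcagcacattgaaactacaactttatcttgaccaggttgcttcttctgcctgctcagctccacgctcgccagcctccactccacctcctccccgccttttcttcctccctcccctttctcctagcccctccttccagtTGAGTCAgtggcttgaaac

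The *Gjd2* window has a GC content of 74.0% and a GC box that begins 33 bases before the start, and the *Gja1* window has a GC content of 50% and a match to the AP-1 letters 19 bases before it. A GC box is in 32.7% and an AP-1 match in 6.75% of the 32851 promoters of this length. *Gjc1* has no entry in the table.

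Of the claudins, the membrane proteins that form the tight junction strands, 16 of 22 were measured. *Cldn11* and *Cldn6* were higher in Wnt4hi and 0 of the 16 were higher in Wnt4low at an unadjusted p under 0.05 (limma), against 6.54% and 6.98% of the measured features. *Cldn11*, known from myelin and Sertoli cells, had a log2 intensity of 10.85, 11.17 and 12.10 in Wnt4hi and 9.79, 10.58 and 10.55 in Wnt4low. The populations did not overlap, and the gap between them was narrow. The difference was 1.07 ± 0.39 (SE, unadjusted p = 0.0312, limma adjusted p = 0.395). It was 0.71 without Wnt4hi replicate 4 and 0.81 without Wnt4low replicate 1, with an unadjusted p of 0.0667 and 0.0927. With processed intensities scaled to the 75th percentile the unadjusted p was 0.0536.

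*Cldn6*, a claudin of embryonic epithelia, had a log2 intensity of 11.54, 12.75 and 12.03 in Wnt4hi and 10.79, 11.37 and 11.27 in Wnt4low. Here too the lowest Wnt4hi array was above the highest Wnt4low array. The difference was 0.96 ± 0.34 (SE, unadjusted p = 0.0278, limma adjusted p = 0.377). Leaving out Wnt4hi replicate 3 or 4, or Wnt4low replicate 1 or 4, brought the unadjusted p to between 0.0526 and 0.0855, and the difference without Wnt4hi replicate 3 was 0.64. Its neighbour *Cldn9*, the next protein-coding gene on chromosome 17, differed by 0.11.

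*Cldn19* and *Cldn10* had arrays that did not overlap without passing the test. *Cldn19*, known from the kidney, was at 7.94, 7.82 and 7.88 in Wnt4hi and 7.74, 7.76 and 7.41 in Wnt4low, a difference of 0.24 ± 0.15 (SE, unadjusted p = 0.151, limma adjusted p = 0.673). *Cldn10*, a claudin that forms ion pores, was at 7.77, 7.86 and 7.57 in Wnt4hi and 7.93, 8.12 and 8.33 in Wnt4low, a difference of -0.39 ± 0.16 (SE, unadjusted p = 0.0504, limma adjusted p = 0.474). Both were near background, each not well above it on 1 array of the dimmer population, and of the measured claudins *Cldn10* alone had a difference below 0.

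The other 12 measured claudins overlapped between the populations. *Cldn4* (0.82), a barrier claudin, had the largest difference among those well above background on 6 arrays, and the array of Wnt4hi replicate 2 was the highest. It was at 11.93, 10.74 and 10.31 in Wnt4hi and 10.74, 10.01 and 9.75 in Wnt4low, with an unadjusted p of 0.132. Without that array the difference was 0.35, and with other arrays left out it reached 1.16. Under a fixed replicate block, which adds the replicate number as a term of the fit, *Cldn4* differed by 0.64, with an unadjusted p of 0.0458. *Cldn23* was at 9.33, 7.97 and 8.06 in Wnt4hi and 7.27, 8.37 and 7.36 in Wnt4low, well above background on 1 of 3 Wnt4low arrays, so that its fitted difference of 0.79 is no measure of size. *Cldn3*, another barrier claudin and the neighbour of *Cldn4*, differed by 0.069. The remaining log2 differences were 0.47 (*Cldn12*), 0.36 (*Cldn18*), 0.26 (*Cldn20*), 0.22 (*Cldn15*), 0.11 (*Cldn14*), 0.11 (*Cldn9*), 0.084 (*Cldn22*), 0.073 (*Cldn2*) and 0.065 (*Cldn7*). *Cldn12* fell to 0.089 without Wnt4low replicate 1, and *Cldn20* was 0.020 without Wnt4low replicate 4 and 0.53 without replicate 3, with an unadjusted p of 0.0492. With 1 array left out, *Cldn18* ranged from 0.21 to 0.48 and *Cldn9* from 0.0078 to 0.24. Over the 16 measured claudins 15 differences were above 0, with a median of 0.23. This count is set in part by the filter. *Cldn3*, *Cldn19* and *Cldn23* were measured only through Wnt4hi, where they were brighter, and *Cldn10* only through Wnt4low. The differences of *Cldn2*, *Cldn3* and *Cldn22* fell below 0 under another normalization or with the authors' values. Those of *Cldn7*, *Cldn14* and *Cldn15* did so with 1 array left out. Over all 22 claudins 17 were above 0, with a median of 0.12, and over all features 28994 of 45616 were above 0.

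The 6 claudins that were not measured were *Cldn8* and *Cldn16*, well above background on 0 of 6 arrays, *Cldn24*, on 1 Wnt4low array, *Cldn1*, on 1 Wnt4hi array and 2 Wnt4low arrays, and *Cldn13* and *Cldn17*, each on 2 Wnt4hi arrays and 1 Wnt4low array. Their levels were not compared.

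Of the 2 MARVEL proteins, *Marveld2* (tricellulin), which sits where the corners of cells meet, had the largest difference towards Wnt4hi of the 45 genes. Its log2 intensity was 11.46, 10.78 and 9.69 in Wnt4hi and 8.52, 9.01 and 8.01 in Wnt4low. All Wnt4hi arrays were above all Wnt4low arrays, although they were spread from 9.69 to 11.46. The difference was 2.13 ± 0.49 (SE, unadjusted p = 0.0046, limma adjusted p = 0.175), or 4.37-fold. The second probe gave 1.07 ± 0.45 (SE, unadjusted p = 0.0545 in the limma fit over all probes), which did not pass, and the mean of both gave 1.60 with an unadjusted p of 0.0079. The authors' values gave 1.07 with their column of Wnt4hi replicate 2, which correlated at 0.27 with its own array, and 1.34 without it.

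*Ocln* (occludin) is next to *Marveld2* on chromosome 13. Its log2 intensity was 8.84, 8.60 and 7.91 in Wnt4hi and 6.0, 8.0 and 7.59 in Wnt4low. The lowest Wnt4hi array was below the highest Wnt4low array, so the populations overlapped, and *Ocln* was well above background on 2 of 3 Wnt4low arrays. It was not so on the array of Wnt4low replicate 1, so the fitted difference of 1.25 (unadjusted p = 0.063, limma adjusted p = 0.511) is no measure of size. It was 0.65 without Wnt4low replicate 1 and 1.66 without Wnt4low replicate 3, with an unadjusted p of 0.101 and 0.030, so single arrays of Wnt4low decide on which side of the threshold it lies.

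*Cgn* (cingulin), a plaque protein that binds ZO-1 and actomyosin, was higher in Wnt4hi. Its log2 intensity was 12.58, 11.38 and 11.76 in Wnt4hi and 9.97, 10.49 and 10.73 in Wnt4low. Here the arrays lay well apart. The difference was 1.51 ± 0.36 (SE, unadjusted p = 0.0051, limma adjusted p = 0.186), or 2.84-fold. The second probe, also well above background on 6 arrays, gave 0.50 ± 0.30 (SE, unadjusted p = 0.15 in the limma fit over all probes), the mean of both gave 1.00 with an unadjusted p of 0.0039, and the authors' values gave 0.90.

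**Figure D3:**
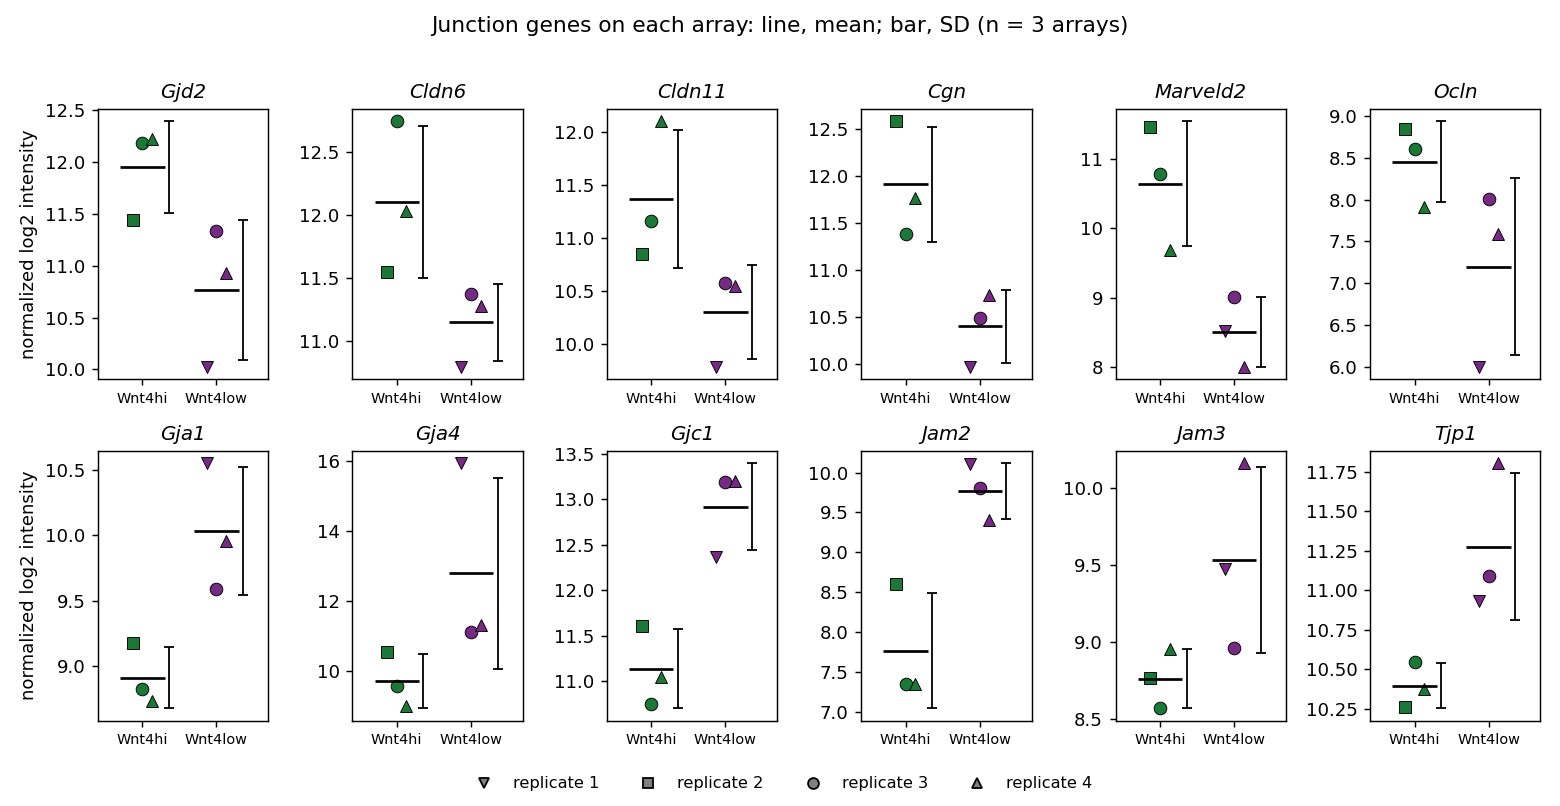
Normalized log2 intensity of 12 junction genes on each array, Wnt4hi in green and Wnt4low in purple, with the replicate number as the symbol, the mean as a line and the SD (n = 3) as a bar; each panel has its own scale. The arrays lie apart for 11 of the genes and overlap for *Ocln*, and in *Gja4* the array of Wnt4low replicate 1 stands at 15.94 against 11.32 for the next.

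The windows of *Marveld2*, *Ocln* and *Cgn* are shown because *Marveld2* and *Cgn* are the tight junction genes with the lowest p towards Wnt4hi and *Ocln* is the neighbour of *Marveld2*. Each is again the 250 bases before the gene start from RefSeq (GRCm38.p6), with GC boxes, spelled as above, and grainyhead motifs (AACCNGTT) on either strand in capitals. Matches to the TATA box (TATAAA) are in capitals too. Where RefSeq lists 2 starts, the first is printed.

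Marveld2, chr13:100616972-100617221, minus strand: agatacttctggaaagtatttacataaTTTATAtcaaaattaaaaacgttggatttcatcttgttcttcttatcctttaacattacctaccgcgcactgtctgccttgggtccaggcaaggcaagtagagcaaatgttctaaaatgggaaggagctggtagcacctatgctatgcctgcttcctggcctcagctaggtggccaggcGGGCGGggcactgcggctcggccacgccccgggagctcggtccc

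Ocln, chr13:100552719-100552968, minus strand: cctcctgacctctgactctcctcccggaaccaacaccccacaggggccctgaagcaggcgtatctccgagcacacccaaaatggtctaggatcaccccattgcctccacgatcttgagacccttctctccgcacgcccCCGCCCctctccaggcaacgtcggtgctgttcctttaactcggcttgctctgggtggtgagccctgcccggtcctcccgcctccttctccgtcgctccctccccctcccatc

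Cgn, chr3:94786483-94786732, minus strand: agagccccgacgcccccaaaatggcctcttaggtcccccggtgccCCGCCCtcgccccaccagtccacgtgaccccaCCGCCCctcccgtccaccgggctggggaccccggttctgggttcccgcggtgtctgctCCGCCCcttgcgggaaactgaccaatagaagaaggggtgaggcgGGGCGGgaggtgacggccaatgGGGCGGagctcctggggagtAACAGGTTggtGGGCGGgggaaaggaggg

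Grainyhead factors are known to bind promoters of epithelial junction genes. The *Cgn* window holds 1 match to their motif, which begins 29 bases before the start, and 6 GC boxes, and neither the *Marveld2* nor the *Ocln* window holds the grainyhead letters. Of the 45 junction genes, 36 had at least 1 promoter in the table, with 51 windows in all. The grainyhead letters were in 2 of the 51 windows, those of *Cgn* and *Gjb6*, and in 1.79% of all 32851 promoters. GC boxes were in 23 of the 51 windows and 32.7% of all promoters, TATA boxes in 7 and 12.4%, AP-1 matches (TGANTCA) in 4 (*F11r*, *Cldn4*, *Cldn15* and *Gja1*) and 6.75%, and an E-box (CAGCTG) in 6 and 13%. Matches of different motifs overlapped 1 time. A match says only that the letters are present.

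The 3 junctional adhesion molecules, immunoglobulin-type proteins of epithelial and endothelial contacts, all had differences below 0, as had 16622 of 45616 features, and 2 of the 3 were higher in Wnt4low, against 5.53% of all features. *Jam2* had a log2 intensity of 8.60, 7.35 and 7.35 in Wnt4hi and 10.10, 9.81 and 9.40 in Wnt4low. All Wnt4low arrays were the higher ones, and the probe was well above background on 2 of 3 Wnt4hi arrays. With 2 Wnt4hi arrays at 7.35, below the levels of *Cldn10* and *Cldn19* given as near background, its fitted difference of -2.0 (unadjusted p = 0.0020, limma adjusted p = 0.121) is no measure of size. It was measured only through the population in which it was brighter, and without it 4 junction genes were higher in Wnt4low.

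*Jam3* had a log2 intensity of 8.76, 8.57 and 8.95 in Wnt4hi and 9.47, 8.96 and 10.16 in Wnt4low. The highest Wnt4hi and the lowest Wnt4low array were almost level. The difference was -0.77 ± 0.32 (SE, unadjusted p = 0.0492, limma adjusted p = 0.470). It lost the unadjusted threshold without Wnt4hi replicate 2, 3 or 4 (unadjusted p of 0.0937, 0.13 and 0.0672) and without Wnt4low replicate 1 or 4 (0.0886 and 0.0987), and was -0.46 without Wnt4low replicate 4. *F11r*, the member of this family typical of epithelia and also of platelets, was at 12.39, 11.60 and 12.18 in Wnt4hi and 12.80, 12.04 and 12.26 in Wnt4low. These arrays overlapped. The difference was -0.32 ± 0.29 (SE, unadjusted p = 0.312, limma adjusted p = 0.796), with a 95% confidence interval of -1.01 to 0.38, and it was -0.087 without Wnt4hi replicate 3 and -0.10 without Wnt4low replicate 1.

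The ZO proteins are scaffolds that hold claudins, occludin and connexins at the membrane. *Tjp1* (ZO-1) was at 10.26, 10.54 and 10.38 in Wnt4hi and 10.93, 11.09 and 11.81 in Wnt4low. No array of Wnt4hi reached those of Wnt4low. The difference was -0.88 ± 0.25 (SE, unadjusted p = 0.0126, limma adjusted p = 0.273), or 1.84-fold higher in Wnt4low. The second probe gave -0.71 ± 0.56 (SE, unadjusted p = 0.253), and with the mean of both the unadjusted p was 0.0821. The authors' values gave -0.62 (unadjusted p = 0.0636), and -0.63 without their column of Wnt4hi replicate 2 (unadjusted p = 0.114). *Tjp3* (0.20), a relative of *Tjp1*, did not pass the test, with a 95% confidence interval of -0.25 to 0.66. With 1 array left out its difference ranged from 0.038 to 0.345. *Cgn* and *Tjp1*, which bind each other in the plaque, thus lay on opposite sides.

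**Figure D4:**
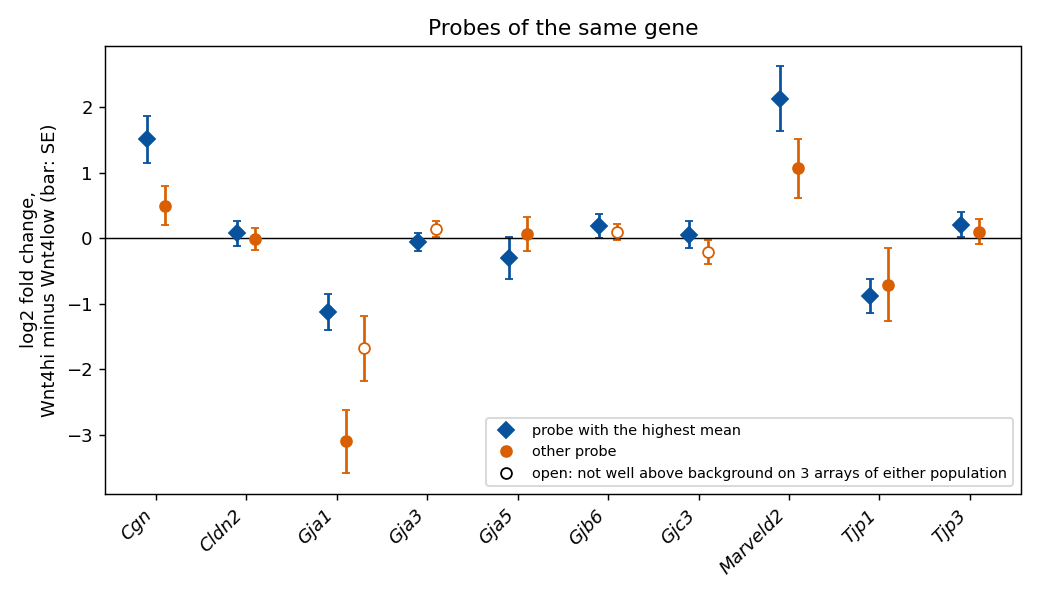
Log2 fold change (Wnt4hi minus Wnt4low, bars are SE) of each probe of the 10 junction genes with more than 1 probe; diamonds are the probes with the highest mean, and open symbols were not well above background on 3 arrays of either population. For *Cgn*, *Marveld2*, *Gja1* and *Tjp1* the probes share their direction, and the second *Gja1* probe was well above background on 1 of 3 Wnt4hi arrays.

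The genes with several probes allow the differences to be set against a second measurement of the same arrays. There were 35 genes with 1 probe, 9 with 2 and 1 with 3. In *Cgn*, *Marveld2*, *Gja1* and *Tjp1* every probe had the sign of the one that stood for the gene. The genes with opposite signs, *Cldn2*, *Gja3*, *Gja5* and *Gjc3*, had differences of at most 0.30 in size.

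Among the measured junction genes, the spread between arrays had the larger median in Wnt4low, which was not set against that of all features. The SD of the 36 measured genes had a median of 0.27 in Wnt4hi and 0.43 in Wnt4low and was larger in Wnt4low for 23 of the 36. Within Wnt4hi, the array of replicate 2 was the highest for 18 of the 36 genes and that of replicate 4 for 6. *Marveld2*, *Ocln*, *Cgn*, *Cldn4* and *Cldn23* were all highest in replicate 2, whereas *Gjd2* and *Cldn11* were lowest there. These genes were picked after their values were seen.

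Around the 45 genes, 37 further genes of these structures were looked at, of which 32 were measured. Of these, 5 were higher in Wnt4hi and 8 in Wnt4low at an unadjusted p under 0.05 (limma), against 6.54% and 6.98% of the 32006 measured features. Over the 37 genes the median log2 difference was 0.048, beside 0.073 over all features. The list was compiled with results of these data known, and its counts are a description.

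Among the other membrane proteins of junctions, 3 of 12 were higher in Wnt4hi and 3 in Wnt4low, against 5.06% and 5.53% of all features. *Lsr* and *Ildr1*, the angulins that bring tricellulin to the corners of cells, were both on the Wnt4hi side. *Lsr* was at 12.83, 13.63 and 13.54 in Wnt4hi and 11.96, 12.52 and 11.95 in Wnt4low, a difference of 1.19 ± 0.28 (SE, unadjusted p = 0.0048, limma adjusted p = 0.179). *Ildr1* was at 9.09, 9.54 and 9.83 in Wnt4hi and 8.10, 8.64 and 8.52 in Wnt4low, a difference of 1.07 ± 0.24 (SE, unadjusted p = 0.0044, limma adjusted p = 0.171). In both genes the arrays did not overlap, as for *Marveld2*, whereas the third angulin, *Ildr2*, was well above background on 1 of 6 arrays. *Epcam*, an epithelial adhesion protein that binds claudins, was the third of this list on the Wnt4hi side, at 1.19.

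On the Wnt4low side of these membrane proteins, *Esam*, an adhesion molecule of endothelial contacts, was the only one of the 37 genes that passed the adjusted threshold, which it lost with the fixed replicate block, with the methods' plain test of each gene (adjusted p = 0.243) and with any 1 array left out. It was at 9.77, 9.28 and 9.54 in Wnt4hi and 12.16, 11.65 and 12.28 in Wnt4low, a difference of -2.50 ± 0.22 (SE, limma adjusted p = 0.0269). *Tmem47*, a membrane protein related to claudins, was at 6.62, 6.66 and 7.63 in Wnt4hi and 10.50, 9.23 and 10.60 in Wnt4low. Its probe was well above background on 0 Wnt4hi arrays and 3 Wnt4low arrays, which allows the bound of at least 6.86-fold higher in Wnt4low (limma adjusted p = 0.0661). *Pmp22*, another relative of claudins known from myelin, differed by -1.53.

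Among 20 proteins of the cytoplasmic plaque and of cell polarity, 2 were higher in Wnt4hi and 5 in Wnt4low, against 5.06% and 5.53% of all features. The polarity proteins of the Par6 family were split: *Pard6b* was at 9.0, 9.42 and 9.25 in Wnt4hi and 8.63, 8.71 and 8.72 in Wnt4low, a difference of 0.53 ± 0.15 (SE, unadjusted p = 0.0123, limma adjusted p = 0.270), which lost the unadjusted threshold with the fixed replicate block. *Pard6g* was at 7.96, 7.82 and 7.97 in Wnt4hi and 8.84, 8.73 and 8.90 in Wnt4low, a difference of -0.91 ± 0.13 (SE, unadjusted p = 0.00034, limma adjusted p = 0.0618). Neither overlapped between the populations, and *Pard6a* differed by 0.36 with overlapping arrays. *Pard6g* was well above background on 3 of 3 Wnt4hi arrays, but at the level of *Cldn19*, given as near background. The size of its difference is therefore uncertain. The other one higher in Wnt4hi was *Patj* (0.71), and the other 4 higher in Wnt4low were *Amotl1* (-2.38), *Mpdz* (-1.84), *Amot* (-1.31) and *Cgnl1* (-1.17), the relative of *Cgn*. The arrays of *Patj*, *Amot* and *Cgnl1* overlapped. Of the 5 relatives of gap junction channels and their regulators, 0 passed the unadjusted threshold (limma), *Panx1*, *Panx2* and *Cnst* differed by 0.059, 0.28 and 0.68, and *Panx3* and *Gje1* were well above background on 0 arrays.

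**Figure D5:**
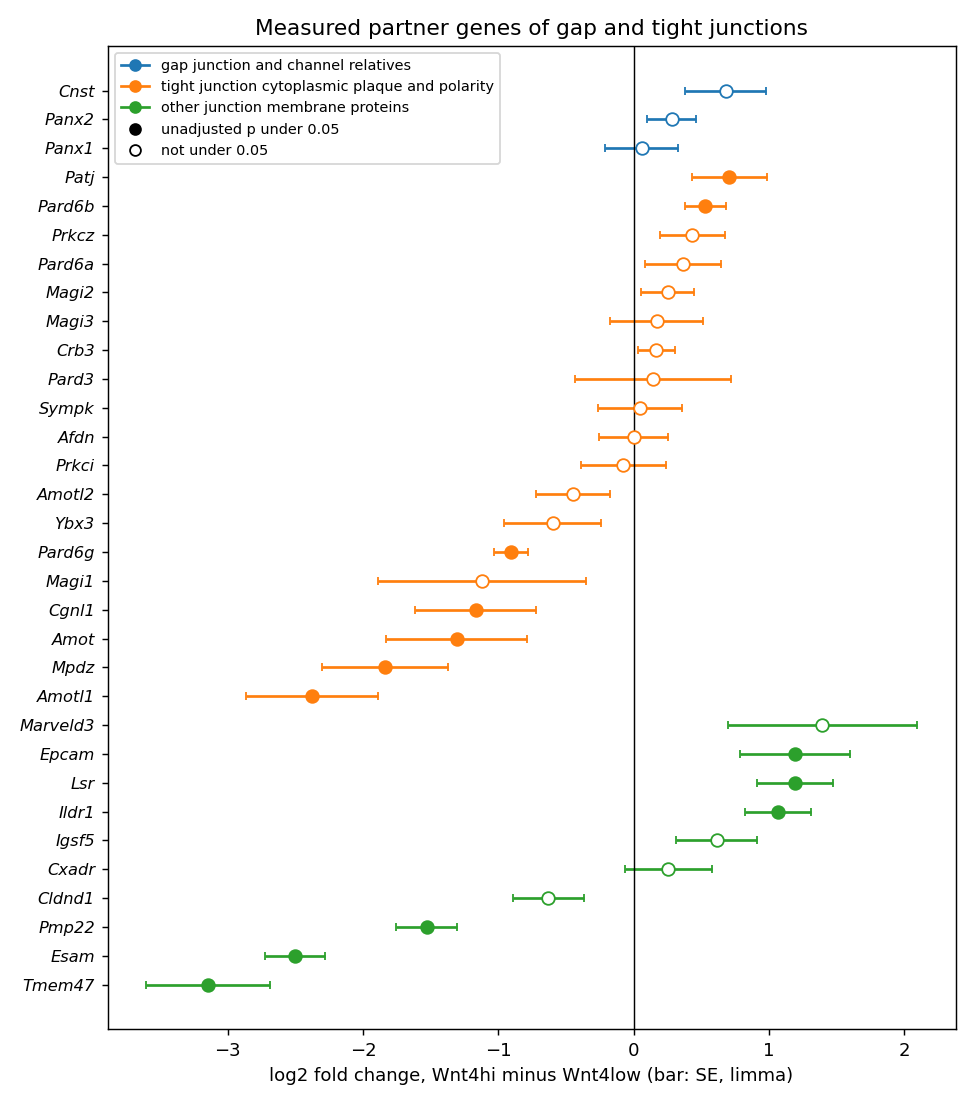
Log2 fold change (Wnt4hi minus Wnt4low, bars are SE from limma) of the 32 measured partner genes in 3 lists; filled points have an unadjusted p under 0.05. *Epcam*, *Lsr*, *Ildr1*, *Patj* and *Pard6b* lie to the right and 8 genes to the left, of which *Tmem47* was not well above background in Wnt4hi, so that its point is no measure of size.

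The 5 measured junction genes higher in Wnt4low, *Gjc1*, *Gja1*, *Jam2*, *Jam3* and *Tjp1*, lay on the same side as the summed endothelial markers (9.0-fold) and the mesenchymal and mural markers (1.90-fold). The sums of 8 Schwann cell markers were also higher in Wnt4low without overlap of the arrays (1.34-fold), and those of the mesothelial (2.49-fold), acinar (2.17-fold), leukocyte (1.17-fold) and δ-cell markers (1.17-fold) were so by their means with arrays that overlapped. Of 11 leukocyte markers 4 were higher in Wnt4low, as were *Sst* and *Hhex* of the 3 δ-cell markers. The third δ-cell marker, *Rbp4* (0.53), was higher in Wnt4hi, without overlap of the arrays. The part of all these cells in these values was not tested. The 5 higher in Wnt4hi, *Gjd2*, *Marveld2*, *Cgn*, *Cldn11* and *Cldn6*, lay on the same side as the β-cell markers, whose sum was 1.42-fold higher in Wnt4hi, and the α-cell markers (2.20-fold). The 9 ductal markers also lay on that side by their sum, which was 1.48-fold higher in Wnt4hi, at 31094 to 35346 against 18699 to 24259 without overlap of the arrays, while their median log2 difference was 0.18. Of the 9, 8 were well above background on each of the 6 arrays, the keratins *Krt8* (1.26) and *Krt18* (1.09) were higher in Wnt4hi, *Spp1* (-2.16) was higher in Wnt4low, and the ductal keratin *Krt19* differed by -0.48. The part of these cells was not tested either.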

How the data were processed

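RNA of sorted mGFP+ (Wnt4hi) and mGFP- (Wnt4low) islet cells was hybridised to single-colour Agilent mouse arrays, 3 per population. All were on 1 slide and scanned alike, which leaves no batch of slide or scan to test. A batch of pools, sorts or amplification could be followed only through the replicate numbers, which the populations share in part. Per the file headers the authors deposited scanner output of Feature Extraction 12.0.1.1 (the submitters' processing notes name 9.1), with a median intensity and a median background intensity per spot in the red channel, not normalized, and a processed intensity. They also deposited normalized log2 values, used as an alternative, in which the column of Wnt4hi replicate 2 correlated with its own array at 0.27 (0.84 to 0.87 for the others).

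After the study's methods, limma 3.58.1 (R 4.3.3) was used: normexp with an offset of 50, log2, quantile normalization, and lmFit with eBayes over 45616 features. Spots marked as outliers (50 to 141 per array) were left out, a step those methods do not state. The probe with the highest mean of 6 arrays stood for a gene. A GRCm38.p6 gene table, used for names, held 25126 of the 27845 RefSeq accessions among the probe names. For a bound, each dim array entered at its own value or, if that was higher, at the lowest value well above background. The calculation was tested on simulated data. Nothing in the labels says that replicates were bred or sorted apart, and p-values measure the spread between these pools. Precision is limited by the small number of arrays.

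The genes and lists were chosen with earlier results of these data known. Some genes of these families are not reported here, and every other measured one is named. Those with an unadjusted p under 0.05 or arrays that do not overlap, and *Gjd2*, *Gja1*, *Ocln*, *Tjp1*, *F11r* and *Cgn*, are given in full. Partner genes are given in full where the adjusted p was under 0.05 or among the 3 smallest p in each direction. The plain values of *Epcam*, *Patj*, *Pmp22*, *Amotl1*, *Mpdz*, *Amot*, *Cgnl1* and other partner genes were added after their values were seen. The alternatives changed the background correction, normalization, filter on dim probes, outlier spots, choice of probe, variance model, values and replicate block, or dropped 1 array at a time.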

Additional observations from a re-analysis of the deposited data

How the results depend on the processing

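Over 20 alternatives, *Cgn*, *Marveld2*, *Gjc1*, *Jam2* and *Gja1* passed the unadjusted threshold under all 20, *Gjd2* and *Tjp1* under 17, *Cldn11* under 16, *Cldn6* under 15 and *Jam3* under 12, and none of these 10 changed direction. Of genes that did not pass it in the report, *Gja4* did under 9 of the 20 (with a difference of -1.92 and an unadjusted p of 0.0013 under the fixed block), *Cldn10* under 5, *Ocln* under 2 and *Gja5*, *Cldn4* and *Cldn20* under 1 each. *Gjd2*, *Cldn11*, *Cldn6* and *Jam3* lost it with a plain unpaired t-test of each gene, run in place of the limma fit that the study used. *Jam3* also lost it with a trended, robust variance and with the authors' values without Wnt4hi replicate 2. The count of members higher in Wnt4hi was 5, and 2 with the t-test and 2 to 7 with 1 array left out (3 without Wnt4hi replicate 3 or Wnt4low replicate 1, 2 without Wnt4hi replicate 4). That of members higher in Wnt4low was 5, and 3 with the authors' values without Wnt4hi replicate 2 (added after seeing the data) and 4 to 7 with 1 array left out. Partner genes higher in Wnt4hi numbered 5, and 3 with the t-test and 3 to 7 with 1 array left out (3 without Wnt4hi replicate 4 or Wnt4low replicate 1), and those higher in Wnt4low numbered 8, and 6 to 11. Of all features, 201 passed the adjusted threshold, 508 with the filter on dim probes, 406 with the authors' values, 316 with these without Wnt4hi replicate 2, 0 with the t-test (4063 unadjusted), 0 with the fixed replicate block (4857 unadjusted) and 0 to 9 with 1 array left out. At that threshold, *Gjc1* passed with the filter on dim probes (adjusted p = 0.0499) and with the authors' values (0.0337), and *Jam2* with the authors' values (0.0182) and these without Wnt4hi replicate 2 (0.0399).

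Whether the replicate numbers pair the samples was not settled: the labels do not say so, the pools that share a number held equal numbers of pups (4 for number 3 and 3 for number 4), and the deviations of same-numbered samples correlated at -0.032 and 0.16. With the number as a fixed block 6 and 6 members, and as a random block 5 and 6, passed the unadjusted threshold. The fixed block rests on the numbers 3 and 4 alone and gave 0.96 for *Cgn* and 0.46 for *Ocln*.

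Small differences that turned sign with 1 array left out ranged over those 6 fits from -0.0093 to 0.23 (*Cldn2*), -0.12 to 0.24 (*Gjb1*), -0.10 to 0.23 (*Gjc3*), -0.34 to 0.37 (*Cldn3*), -0.55 to 0.19 (*Gjd3*), -0.22 to 0.0099 (*Gjb5*), -0.045 to 0.54 (*Cldn15*), -0.054 to 0.35 (*Cldn14*) and -0.17 to 0.26 (*Cldn7*). Cyclic loess turned *Cldn2* (-0.00026), *Gjb1* (-0.048) and *Gjc3* (-0.012), the mean of all probes *Gjc3* (-0.080) and *Gja3* (0.042), and the fixed block *Gjc3* (-0.058) and *Gjd3* (0.071). The authors' values turned *Cldn22* (-0.13), *Cldn3* (-0.16) and *Gjd4* (0.0030), and without Wnt4hi replicate 2 *Cldn2* (-0.018), *Cldn3* (-0.19) and *Gjb1* (-0.062). Apart from arrays left out, the cause was not tested. The alternative with names from a gene name column was not run, because the columns used here hold none.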
